A study of Mus musculus with 11 samples.

Results

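The medial and caudal ganglionic eminences (MGE and CGE) are neighbouring swellings of the ventral embryonic forebrain, and H3K27me3 peaks from both regions were compared at the 5′ ends of protein-coding genes. For each of 21755 protein-coding genes on chromosomes 1 to 19 and X, the percent of the window reaching 2 kb either side of the annotated 5′ end that lay under peaks was measured in the MGE list and in the CGE list. A gene was counted as different when the coverages were 40 or more points apart. This gave 236 genes, of which 26 had more coverage in MGE (0.12% of all genes) and 210 had more in CGE (0.965%). A second group of members were peaks of one list that shared no base with the other, 3015 of 15384 MGE peaks and 6939 of 19196 CGE peaks.

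Trimethylation of lysine 27 on histone H3 (H3K27me3) is deposited by Polycomb repressive complex 2 and is found at silent or lowly transcribed genes, above all at CpG-rich promoters of developmental regulators. In the embryonic forebrain the MGE, marked by the homeodomain factor *Nkx2-1*, gives rise to somatostatin and parvalbumin interneurons, and the CGE, marked by the nuclear receptor *Nr2f2*, gives rise to interneurons such as those that express VIP or reelin. The progenitors of both regions share the *Dlx* genes and the GABAergic programme. The comparison therefore asks where the repressive mark differs between neighbouring regions that share most of a programme and differ in the neurons they make. Coverage by peaks is a measure of how far the mark was called along a window and is neither an amount of the mark in each cell nor a level of transcription.

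The series profiled H3K27me3 by CUT&Tag, in which an antibody guides a transposase to chromatin, in wild-type C57BL/6J mouse embryos, with MGE, CGE, the lateral ganglionic eminence (LGE) and cortex (CTX) dissected separately. MGE was represented by 2 samples and CGE by 3, of which a pair carry the same replicate number. No sample is labelled with an age: the protocol text speaks of embryonic days 12.5 and 14.5, while the study's own description places CUT&Tag at 12.5. The protocol also speaks of mixing nuclei of the regions, although each sample is labelled with 1 region, and the lists are described here by those labels. Every group was wild type and no treatment is named.

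Because the authors pooled the samples of each region ahead of peak calling, MGE and CGE are represented by 1 list each, the values carry no error between replicates, and no difference was tested. The CGE list covered 32.9 Mb and the MGE list 24.5 Mb, a ratio of 1.34, and the study's methods give a larger sequencing total for CGE. Sequencing depth, sample number and region cannot be told apart as sources of that gap. In a second comparison the weakest CGE peaks were dropped until both lists covered the same number of bases. This can only lower CGE coverage, so the direction of the change was fixed in advance and the weight of the gap is not measured by it. With equal covered bases 100 genes were higher in MGE and 95 in CGE, so MGE held 51.3% of the differing genes rather than 11%. A q-value under 0.001, asked of both lists, moved the share the other way. It gave 28 genes higher in MGE and 443 in CGE, with 5.94% in MGE. Of the 210 CGE genes 95 kept their call, and the 26 MGE genes keep theirs by construction, since only CGE peaks were dropped. A window of 5 kb either side, in which 40 points span more bases than most peaks hold, left 1 gene higher in MGE and 2 in CGE.

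Most genes were alike in the MGE and CGE lists. Of the 7325 genes with a covered base in either list (33.7% of all), 61.2% were within 10 points of each other, and 83 had windows covered from end to end in both. The median difference over these 7325 genes was -3.275 points (MGE minus CGE), and 4848 genes were higher in CGE by any amount against 2262 in MGE. The 5′ end itself was under a peak at 3587 genes in both lists, at 587 genes in MGE alone and at 949 in CGE alone.

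**Figure D1:**
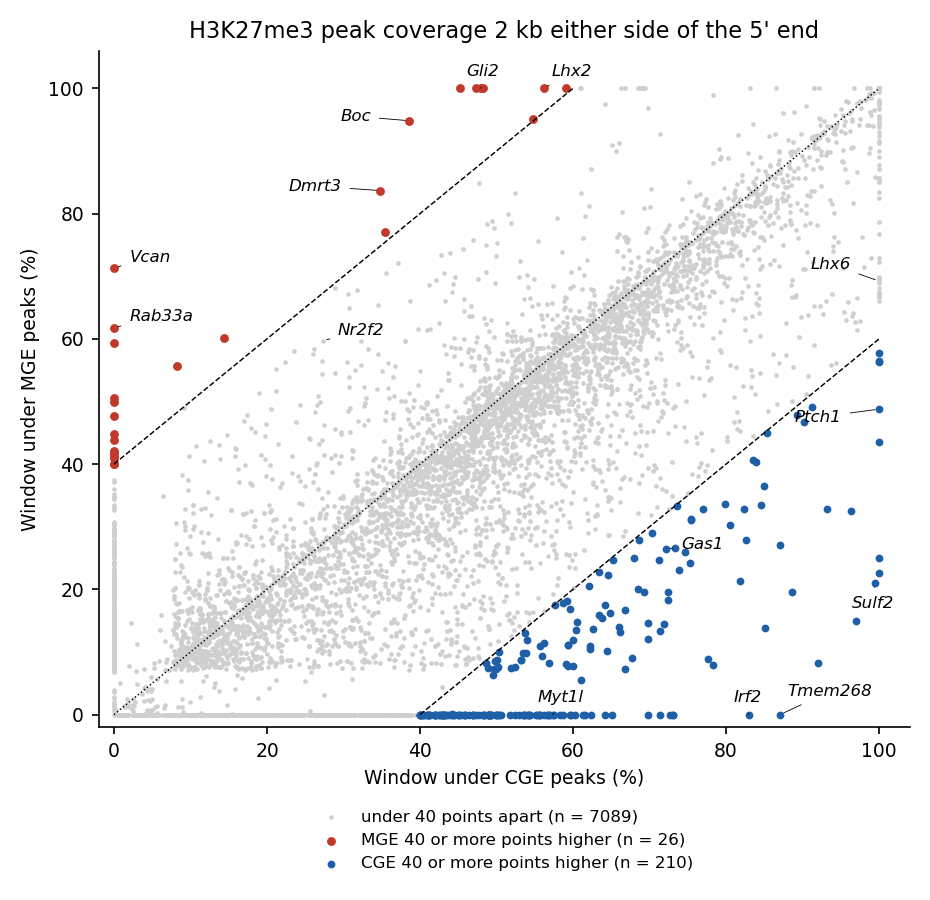
Percent of the 4 kb window under MGE peaks (vertical) against CGE peaks (horizontal) for the 7325 genes with a covered base, 1 point a gene; red and blue points are the 26 and 210 genes 40 or more points apart (dashed lines) and the dotted line marks equal coverage. Most points lie near equality, and the differing genes lie mostly on the CGE side.

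The labels were compared with genes that define each region. *Nkx2-1*, the MGE selector gene, had its window covered at 100% in both MGE and CGE, and also in LGE and CTX. *Lhx6*, the LIM factor of MGE-derived interneurons, was covered at 69.2% in MGE and 100% in CGE, LGE and CTX. *Nr2f2* showed the opposite order, its window being covered at 59.7% in MGE and at 27.3% in CGE, while LGE (27.4%) and CTX (27.6%) were close to CGE. Neither gene reached 40 points, their differences being -30.8 and 32.4, and none of the 6 MGE and 6 CGE markers examined did. When peaks less than 3 kb apart were joined, the difference was 0 at *Lhx6* and stayed at 32.4 at *Nr2f2*. The markers as sets had no common order. Of the 6 MGE markers 3 were lower in MGE and 2 lower in CGE, and the counts were the same for the 6 CGE markers. *Lhx8*, an MGE marker, was at 76.7% in MGE and 66% in CGE. The CGE markers *Htr3a* (20.7% and 33.8%) and *Npas1* (45.8% and 48.5%) were lower in MGE. *Nr2f1* had no covered base in either list, *Prox1* was at 37.9% in MGE and 40.2% in CGE, and *Sp8*, a factor of CGE and LGE lineages, was at 57.0% and 47.7%. Windows of 5 blood and microglial markers held no base in either list. Those of 5 mesenchyme markers were covered at 24.4 to 100% in MGE and 54.2 to 100% in CGE. Of these 1 was called (*Foxc1*, 56.3% in MGE and 100% in CGE), beside 0.965% of all genes in that direction and 2.87% of genes with a covered base. A repressive mark does not measure the number of cells of a type.

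Among the 26 genes higher in MGE were members of the Sonic hedgehog pathway and several regulators of regional identity. *Gli2*, a transcriptional effector of hedgehog signalling, had its whole window covered in MGE (chr1:119051620-119055619, minus strand) and 48.0% in CGE, with 38.7% in LGE and 0% in CTX. A single MGE peak ran from 2296 bases upstream to 3743 bases downstream of the 5′ end, while the CGE peak began 81 bases downstream of it. *Boc*, a hedgehog co-receptor, was covered at 94.8% in MGE and 38.6% in CGE (chr16:44556898-44560897, minus strand), with 30.1% in LGE and 0% in CTX. There too the MGE peak crossed the 5′ end, from 2111 bases upstream to 1793 downstream, and the CGE peak began 147 bases downstream. At both genes the bases that differed were therefore those of the promoter, with the mark called downstream in both eminences. These are the 300 bases from 250 upstream to 50 downstream of the 5′ end of *Gli2*, all under the MGE peak and none under the CGE peak, with CpG dinucleotides in capitals (chr1:119053570-119053869, minus strand, mm10).
Gli2: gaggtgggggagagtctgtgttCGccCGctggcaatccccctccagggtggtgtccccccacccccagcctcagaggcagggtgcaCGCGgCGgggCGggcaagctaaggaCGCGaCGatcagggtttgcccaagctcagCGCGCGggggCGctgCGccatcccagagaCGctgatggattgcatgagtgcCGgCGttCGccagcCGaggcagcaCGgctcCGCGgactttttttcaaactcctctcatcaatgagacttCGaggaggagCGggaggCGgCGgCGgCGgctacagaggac

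The *Gli2* stretch held 28 CpGs and 67.3% G+C. Both *Gli2* and *Boc* were among the 7 MGE genes that remained called at the stricter q-value (under 0.001) and with near peaks joined. Equal covered bases could not remove an MGE call, since only CGE peaks were dropped.

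The hedgehog pathway genes did not move one way. *Ptch1*, the receptor and a feedback target of the pathway, was covered at 48.8% in MGE and 100% in CGE, LGE also being at 100% and CTX at 75.4%. The MGE peak reached from 914 bases upstream to 1037 downstream of the 5′ end, inside the CGE peak that ran from 2982 upstream to 4460 downstream. *Gas1*, another co-receptor, was covered at 26.4% in MGE and 72.2% in CGE, with no base in LGE and 37.1% in CTX. Its CGE peak crossed the 5′ end and its MGE peak began 942 bases downstream. Of 28 hedgehog pathway genes examined, 2 were called higher in MGE, 3 higher in CGE and 23 neither. Over all genes the shares called were 0.12% and 0.965%, and over genes with a covered base 0.355% and 2.87%. *Smo*, the signal transducer, stayed just under the threshold with no base in MGE and 38.2% in CGE, and *Shh* itself was at 71.2% and 73.2%. The difference at *Smo* fell to 0 at a q-value under 0.001 and with equal covered bases.

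The call at *Ptch1* depended on the annotation. Its GENCODE 5′ end is the outermost of the gene, and the RefSeq 5′ end lies 7863 bases further downstream, where neither list had a covered base. *Gas1* was also sensitive to the size of the lists: with equal covered bases its CGE peak was dropped and it stood 26.4 points higher in MGE.

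The letters GACCACCCA, bound by GLI factors, or their reverse complement were searched in the 4 kb windows. They occurred in that of *Ptch1*, in neither that of *Gli2* nor that of *Boc*, and in all in 13 of 210 CGE genes (6.19%) and in 0 of 26 MGE genes, beside 3.43% of all windows and 3.99% of windows with a covered base.

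**Figure D2:**
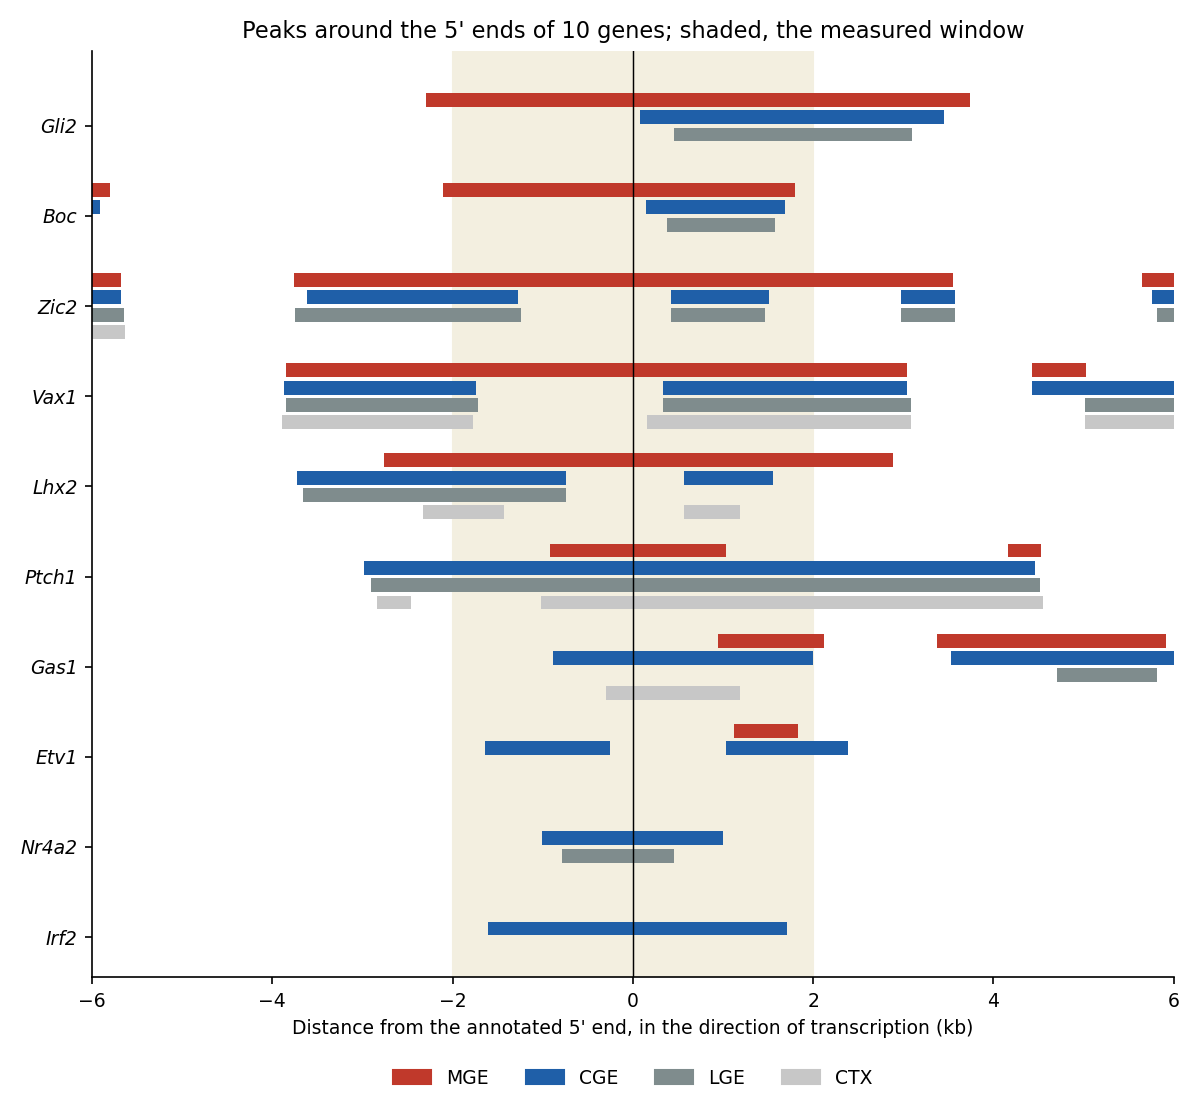
Peaks within 6 kb of the 5′ ends of 10 genes in the MGE, CGE, LGE and CTX lists (bars, by colour), in the direction of transcription; the shaded band is the measured window. At Gli2, Boc, Zic2, Vax1 and Lhx2 an MGE peak crosses the 5′ end that the CGE list leaves uncovered, while at Gas1, Nr4a2 and Irf2 the CGE peak crosses it and no MGE peak does.

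Regulators covered from end to end in MGE and only in part in CGE shared the form of the difference. *Zic2* (45.3% in CGE), *Hoxa9* (47.3%), *Gli2* (48.0%), *Vax1* (48.2%), *Lhx2* (56.2%) and *Hand2* (59.1%) were the 6 MGE genes at 100%. At each of them the CGE list left the 5′ end bare, with a gap of 1307 to 2109 bases inside the window. At *Zic2*, a zinc finger factor of forebrain patterning, 1 MGE peak spanned the window, and the CGE list was bare from 1273 bases upstream to 426 downstream. At *Vax1*, a homeobox gene of the ventral forebrain, the bare stretch ran from 1735 upstream to 337 downstream, and at *Lhx2*, a LIM homeobox gene of cortical and eye development, from 741 upstream to 566 downstream. The LGE list, which took no part in the choice, also left the 5′ ends of *Gli2*, *Zic2*, *Vax1* and *Lhx2* bare, and so did the CTX list, whereas *Hand2*, a heart and limb factor, was fully covered in LGE and CTX. The promoter of *Zic2* is shown as the most CpG-rich of those printed, with 35 CpGs (chr14:122475185-122475484, plus strand), none of its bases being under a CGE peak.
Zic2: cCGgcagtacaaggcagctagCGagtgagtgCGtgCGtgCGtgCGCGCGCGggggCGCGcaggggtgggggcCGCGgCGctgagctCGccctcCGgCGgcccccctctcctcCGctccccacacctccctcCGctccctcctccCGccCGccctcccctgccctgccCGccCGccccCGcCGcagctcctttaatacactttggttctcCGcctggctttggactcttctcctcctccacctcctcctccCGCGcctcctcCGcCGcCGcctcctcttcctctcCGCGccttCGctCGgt

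A bare 5′ end between flanking peaks was also found in the opposite direction. Of the 7 CGE genes covered at 100%, *Foxc1*, *Uncx* and *C1ql1* each had 2 MGE peaks in the window with a gap of 1690 to 1747 bases over the 5′ end. Joining peaks less than 3 kb apart, which closes such gaps, kept 19 of the 26 MGE calls and 204 of the 210 CGE calls, and *Zic2*, *Hoxa9*, *Vax1*, *Lhx2*, *Hand2* and *Foxc1* were among the calls lost.

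Genes of the pallium, the dorsal territory that forms the cortex, were mostly under the threshold in both directions. Of 27 pallial lineage genes 2 were called higher in MGE, *Lhx2* and *Dmrt3*, and 1 higher in CGE, *Nr4a2*. The shares over all genes were 0.12% and 0.965%, and over genes with a covered base 0.355% and 2.87%. The difference fell to 11.1 points at *Lhx2* and to 0 at *Dmrt3* when near peaks were joined, and to 0 at *Nr4a2* with equal covered bases. By any amount 16 were higher in MGE, 4 in CGE and 7 equal, and the median of the list was 0.725 points, beside -3.275 points for all genes with a covered base. The 39 *Hox* genes had a median of 1.425 points, so a lean to MGE was not particular to pallial genes. Among the 4 higher in CGE, *Neurod1* was at 29.85% in MGE and 54.15% in CGE, and joining near peaks took its difference to 0. *Dmrt3*, a patterning factor of the pallium, was covered at 83.7% in MGE and 34.8% in CGE, with LGE at 51.1% and CTX at 20.2%. Its relatives came close without passing, *Dmrta2* at 100% against 68.8% and *Dmrta1* at 29.2% against 0%. *Emx2*, a cortical area gene, was at 25.2% in MGE and at 0% in CGE, LGE and CTX. *Neurod2*, a factor of excitatory neurons, was at 84.8% and 47.6%. Joining near peaks took the differences at *Dmrta2* and *Neurod2* to 0 and left those at *Dmrta1* and *Emx2* at 29.25 and 25.2. With equal covered bases *Neurod2* joined the MGE calls at 46.6 points. *Nr4a2*, an orphan nuclear receptor, went the other way with no base in MGE and 50.3% in CGE. *Emx1*, *Neurog1* and *Eomes* were fully covered in both.

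Genes of interneuron identity were mostly called in both lists to a similar extent. Of 21 MGE and preoptic identity genes only *Etv1*, an ETS factor, was called, with 17.8% in MGE and 58.7% in CGE and no base in LGE or CTX. That call was lost in 3 settings, the difference being -24.1 points at a q-value under 0.001 and -6.35 with an equal number of peaks and with equal covered bases. None of 19 CGE identity genes and none of 10 genes common to the eminences was called. Over all genes 0.12% were called higher in MGE and 0.965% higher in CGE, and over genes with a covered base 0.355% and 2.87%. *Nkx6-2* and *Hmx2* were at 100% in both lists. Below the threshold, *Lmo3*, a LIM-only factor, was at 14.4% in MGE and 50.4% in CGE, and *Adarb2*, an RNA-editing homologue expressed in CGE interneurons, was at 19% and 51.2%. The paired factors *Dlx1* and *Dlx2* were both lower in MGE, at 67.5% against 100% and 16.4% against 44.8%. With near peaks joined their differences were 0 and -3.375 points. *Dlx6* went the other way, at 50.6% in MGE and 35.95% in CGE, and its difference was also 0 with near peaks joined. Of the 6 *Dlx* genes 3 were higher in MGE, by up to 39.15 points, and 3 higher in CGE. Joining took the difference at *Lmo3* to 2 points and left that at *Adarb2* at -32.25. At the CGE identity gene *Nfix*, whose GENCODE window was at 100% in both lists, the RefSeq 5′ end lies 20262 bases downstream, and there the coverage was 96.4% in MGE and 42.6% in CGE.

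Most of the remaining MGE genes had no base in CGE. In all 14 of the 26 stood against a CGE coverage of 0, led by *Vcan* (71.3%), the matrix proteoglycan versican, whose nearest CGE peak lay 917143 bases away. Its peak was weak, with a −log10 q of 2.24, and it was lost at a q-value under 0.001. *Rab33a*, a small GTPase of vesicle transport, was at 61.8% in MGE and 0% in CGE, with LGE at 13.8% and CTX at 9%. *Traf3ip1*, a component of ciliary transport, was at 59.4% and 0%, with LGE at 13% and CTX at 13.8%. Both stayed called at a q-value under 0.001 and with near peaks joined, as did *Ccdc88c* (44.9%), *Fmn2* (43.8%) and *Adcy7*. Equal covered bases could not remove these calls. *Adcy7*, an adenylyl cyclase, was covered at 95.2% in MGE and 54.7% in CGE. The RefSeq 5′ end of *Adcy7* lies 10589 bases downstream, where neither list had a covered base. *Kcna3*, a potassium channel, was at 41.8% against 0%, and *Ephb6*, an ephrin receptor, at 55.7% against 8.18%, and both calls were lost at a q-value under 0.001. Among 39 *Hox* genes 2 were called, *Hoxa9* and *Hoxb4* (60.1% against 14.3%), both higher in MGE, beside 0.12% of all genes in that direction. All 39 had a covered base, and over such genes the share was 0.355%. By any amount 25 *Hox* genes were higher in MGE and 11 in CGE.

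Among the 210 genes higher in CGE the MGE window held no base in 107 (51.0%), beside 53.8% of the MGE genes with no base in CGE, and 203 separate stretches of the genome accounted for the 210, since some windows overlap. *Tmem268* had the largest difference, with 0% in MGE and 87.1% in CGE, beside 22.6% in LGE and 14.5% in CTX. *Irf2*, an interferon regulatory factor, had no base in MGE, LGE or CTX and 83.0% in CGE, under 1 peak from 1610 bases upstream to 1708 downstream of the 5′ end with a −log10 q of 7.56. *Sulf2*, an enzyme that trims heparan sulfate, was at 21.1% in MGE and 99.5% in CGE, and *Il17d*, a cytokine of the interleukin 17 family, at 8.20% and 91.9%. For *Il17d* LGE (86.8%) and CTX (75.6%) stood with CGE, whereas for *Irf2* and *Tmem268* they stood with MGE. The *Irf2* stretch at chr8:46739482-46739781 (plus strand), covered in none of the other 3 lists, was as follows.
Irf2: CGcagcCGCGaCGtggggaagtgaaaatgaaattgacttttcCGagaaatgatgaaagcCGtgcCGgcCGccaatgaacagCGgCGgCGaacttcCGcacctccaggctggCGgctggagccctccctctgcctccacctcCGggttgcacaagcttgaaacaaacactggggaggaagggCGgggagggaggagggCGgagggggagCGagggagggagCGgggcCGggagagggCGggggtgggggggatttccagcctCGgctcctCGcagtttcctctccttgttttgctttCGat

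Several families contributed single members. *Prkcq*, a protein kinase C, and *Bfsp1*, a lens filament protein, were covered at 100% in CGE and at 22.6% and 25.1% in MGE. Of 82 axon guidance and migration genes 4 were called higher in CGE and 1 (*Ephb6*) in MGE, beside 0.965% and 0.12% of all genes. Over genes with a covered base, which 67 of the 82 had, the shares were 2.87% and 0.355%. The semaphorin *Sema4c* was at 0% in MGE and 65.1% in CGE, and the semaphorin receptor *Plxna4* at 32.9% and 93.2%. The ephrin receptor *Epha4* was at 0% and 53.5%, with no base in LGE or CTX. The fourth, *Ntn4* of the netrin family, was at 33.6% and 79.9%, but stood 33.6 points higher in MGE once covered bases were equal.

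Of 103 transmitter receptor genes 4 were called higher in CGE and none in MGE, beside 0.965% and 0.12% of all genes, and with equal covered bases the count was 2 in each direction. Over genes with a covered base, which 77 of the 103 had, the shares were 2.87% and 0.355%. The acetylcholine receptor subunits *Chrnb1* and *Chrnb2* were at 9.10% and 0% in MGE and at 67.7% and 69.8% in CGE. *Gabbr1*, a GABA-B receptor subunit, was at 0% and 44.2%, and *Htr4*, a serotonin receptor, at 26.5% and 73.3%. With equal covered bases *Chrnb1* and *Htr4* kept their calls, *Chrnb2* and *Gabbr1* fell to 0 points, and *Gabra2* and *Grm4*, named here after their values were seen, became higher in MGE. The neuronal factor *Myt1l* was at 0% in MGE and 57.4% in CGE, and the synaptotagmin *Syt16* at 18.4% and 72.3%. *Epop*, which associates with Polycomb repressive complex 2, was at 40.6% and 83.5%. *Fzd3*, a Wnt receptor at 0% and 43.0%, was the only 1 of 56 Wnt pathway genes called, beside 0.965% of all genes. Over genes with a covered base that share was 2.87%. *Gdf5*, a BMP ligand, lay exactly on the threshold at 0% and 40.0%. *Fzd3* and *Gdf5* fell to 0 points at a q-value under 0.001, with an equal number of peaks and with equal covered bases.

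No gene of the Notch (22 genes), retinoic acid (20) or Fgf (32 measured) pathways was called in either direction, which is near the share called among all genes. *Fgf10*, a growth factor, came close at 68.2% in MGE and 28.8% in CGE, and *Crabp2*, a retinoic acid binding protein, at 38.9% and 77.3%. The 44 collagen genes also gave no call, although 30 were higher in CGE by any amount and 1 in MGE, with a median of -4.34 points. Near the threshold *Ing2* (40.0 points), *Armc2* (40.1) and *Adcy7* (40.4) were just inside on the MGE side and *Ctnnd2* (39.9) just outside, and on the CGE side *Krtcap3* (-40.0) and *Ccdc142* (-40.0) were inside and *Sult2b1* (-39.9) outside.

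**Figure D3:**
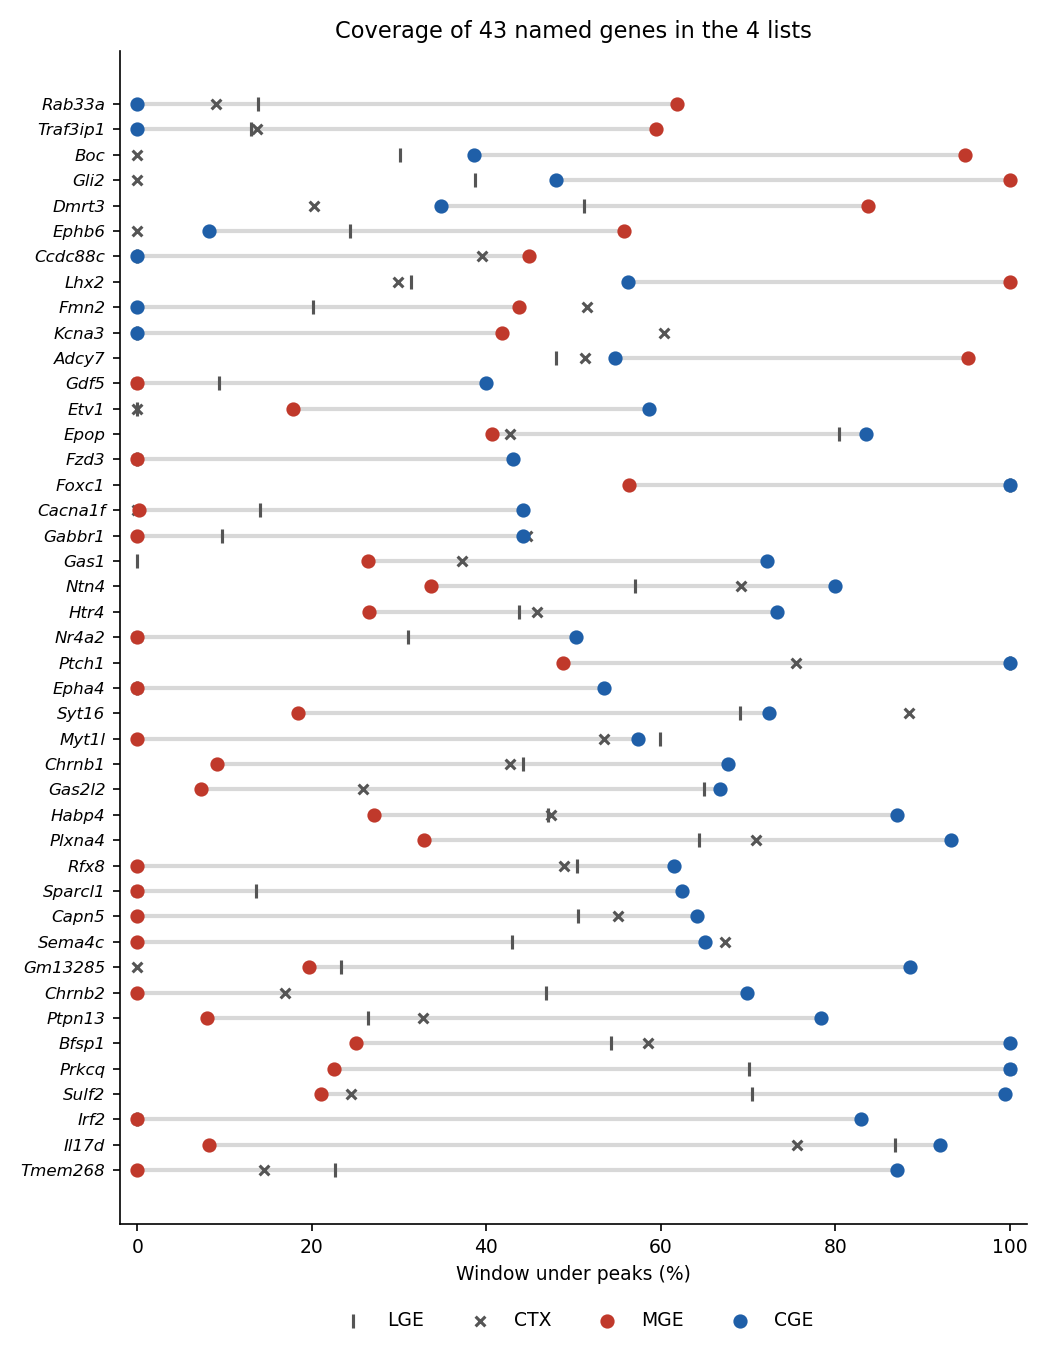
Window coverage in MGE (red), CGE (blue), LGE (bars) and CTX (crosses) for 43 named genes, ordered by the difference from MGE-higher at the top to CGE-higher at the bottom; grey lines join the MGE and CGE values. Some LGE or CTX marks are hidden where they equal an MGE or CGE value.

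Averaged over the called genes, the profiles around the 5′ end differed in form between the directions, which was not tested. The high and low levels of MGE and CGE follow from the choice of genes, which used the same coverages of the same windows. In the 26 MGE genes the mean share under MGE peaks was 75.5% just upstream of the 5′ end and 80.8% just downstream and reached 99.0% within the window, while CGE coverage was 7.69% and 10.9% at these steps. The difference was larger downstream than upstream in 17 of the 26. In the 210 CGE genes the CGE profile was nearly symmetric about the 5′ end, at 85.1% and 84.9% on its sides and 23.6% and 23.7% at the ends of the window, and the larger difference fell upstream in 110 genes and downstream in 100. MGE coverage there did not exceed 16.5% at any step.

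**Figure D4:**
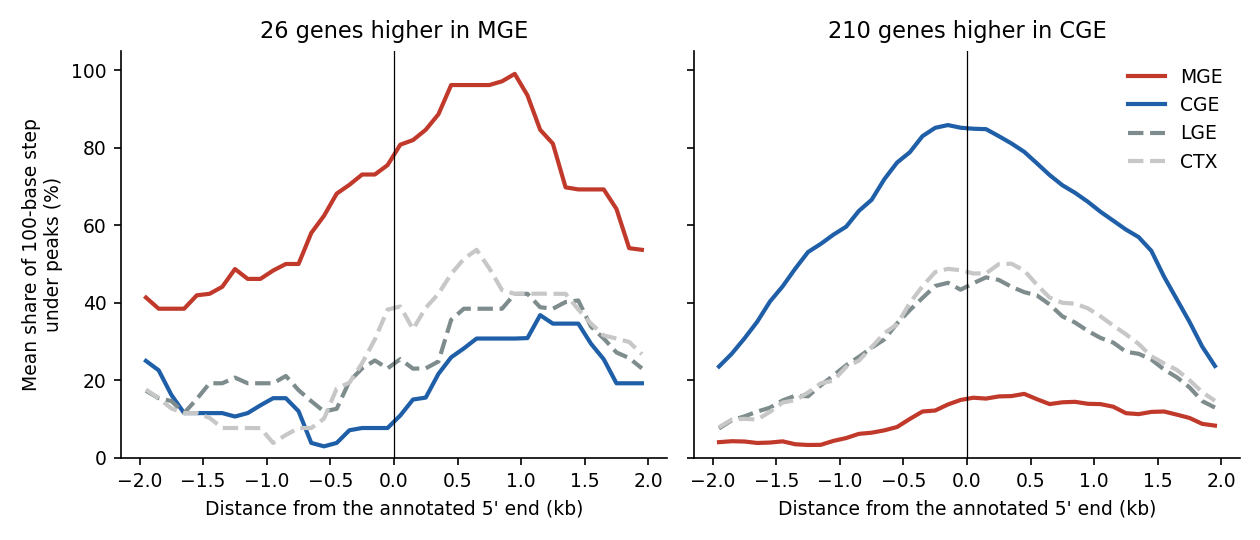
Mean percent of each 100-base step under peaks, by distance from the 5′ end, for the 26 genes higher in MGE (left) and the 210 higher in CGE (right) in the 4 lists (lines). CGE coverage peaks at the 5′ end of the CGE genes at 85.8%, while LGE and CTX run between the MGE and CGE lines there. The MGE and CGE levels follow from the choice of genes.

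LGE and CTX, which took no part in the choice, gave a further readout of these windows. Among the MGE genes LGE coverage was nearer to CGE in 23 of 26 and CTX coverage in 19 of 26. Among the CGE genes LGE was nearer to MGE in 133 of 210 and CTX in 122, and 32 had no base in LGE or CTX, *Irf2*, *Epha4* and *Fzd3* among them. A list that did not choose the windows tends to lie away from the extreme one, so nothing about the regions was read from these counts. Of the 95 CGE genes that kept their call with equal covered bases, 67.4% had the 5′ end itself under an LGE peak. For CTX peaks the share was 64.2%, and the shares of all 210 were 43.3% and 48.6%. Over all protein-coding genes they were 20.8% and 22.8%. The 95 are part of the 210 and were kept for the strength of their CGE peaks, so nothing was read from that difference.

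In base composition the CGE genes were close to genes with a covered base, and the MGE genes had higher medians, which was not tested. Promoters of 300 bases around all 5′ ends had a median of 55% G+C and 11 CpGs, and those of the 7325 genes with a covered base 61.0% and 18 CpGs. The MGE genes had 64.2% and 23 CpGs, and the CGE genes 60.8% and 18 CpGs. The letters AGGTCA, the core of sites bound by nuclear receptors, occurred on either strand in 3 of 26 MGE promoters (11.5%) and 26 of 210 CGE promoters (12.4%), beside 14.7% of all promoters and 11.8% of those of genes with a covered base.

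Peaks found in 1 list alone were narrow and weak. The 3015 MGE peaks with no base in CGE made up 19.6% of the list but 8.99% of its bases, with a median width of 511 bases against 1525 for MGE peaks that met CGE. The 6939 CGE peaks with no base in MGE made up 36.1% of the list and 20.3% of its bases, with medians of 711 and 1942 bases. Their median −log10 q was 1.80 against 4.54 in MGE and 2.18 against 10.4 in CGE. Among the strongest 20% of peaks by q-value 4 of 3076 in MGE and 2 of 3839 in CGE had no base in the other list, and in the weakest 20% of them 46.5% and 78.6% had none. With equal covered bases, where only CGE peaks were dropped, the counts were 5672 peaks in MGE and 1283 in CGE. At a q-value under 0.001 in both lists they were 745 and 4611.

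These peaks, like those of the whole lists, lay mostly away from genes' 5′ ends. Of the MGE peaks 21.2% touched a 5′-end window and 41.5% were intergenic, beside 38.6% and 31.4% of the whole MGE list. For the CGE peaks the shares were 13.3% and 47.9%, beside 32.5% and 35.6% of the whole CGE list. MGE peaks absent from CGE also met no LGE or CTX peak in 67.2% of cases, beside 19.18% of the whole MGE list. For CGE peaks absent from MGE the share was 45.8%, beside 21.05% of the whole CGE list. Both groups were chosen for missing another list and were mostly weak, so nothing about the regions was read from these shares.

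**Figure D5:**
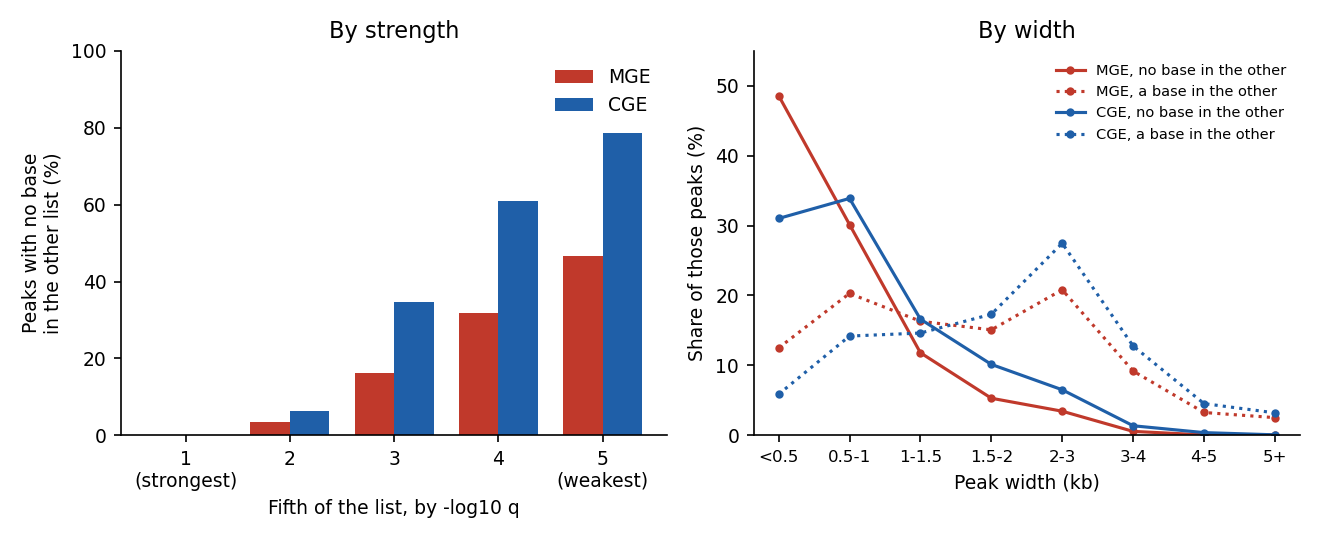
Left, percent of peaks with no base in the other list in 5 equal classes of each list ordered by −log10 q; right, width of peaks with and without a base in the other list, as percent of each class. Peaks of 1 list alone rise from 0.13% (MGE) and 0.0521% (CGE) in the strongest class to 46.5% and 78.6% in the weakest and are mostly under 1 kb wide.

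The widest of them were few. In MGE 21 of 3015 reached 3 kb and 2 reached 5 kb. The widest, chrX:51066954-51073696 (6743 bases), was intergenic, 48.9 kb from the 5′ end of *Rap2c*, a Ras-related GTPase, and 132 kb from the nearest CGE peak, with a −log10 q of 1.60 and no base in LGE or CTX. The second, chr12:36788723-36794120 (5398 bases), lay 314 kb from *Meox2*, a homeobox gene, and LGE and CTX peaks covered 62.2% and 62.6% of it. The third, chr11:82184488-82189009 (4522 bases), fell in an intron of *Ccl1*, a chemokine gene, as GENCODE draws it, and others fell in introns of *Vgll4* and *Tenm2*. The strongest MGE peak absent from CGE, chr17:23537040-23539003, had a −log10 q of 31.1 and lay 25.2 kb from *Zfp213*. A peak of 601 bases in an intron of *Pax6*, the eye and cortex regulator, followed at 17.2 (chr2:105690041-105690641), with the nearest CGE peak 1714 bases away.

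In CGE 127 of 6939 such peaks reached 3 kb and 5 reached 5 kb. The widest, chr2:109950646-109956310 (5665 bases), lay in an intron of *Lgr4*, an R-spondin receptor, and was covered at 90.9% in LGE and 77.1% in CTX. The next lay in introns of *Capn8*, a calpain (5293 bases, chr1:182576697-182581989), of *Tcf7l2*, a transcription factor of Wnt signalling (5226 bases, chr19:55836817-55842042), and of *Thsd4* (5098 bases, chr9:60259724-60264821). The *Thsd4* peak had no base in LGE or CTX and that of *Tcf7l2* 5.95% in LGE. A peak over exons of *Tac2*, a tachykinin precursor (4640 bases, chr10:127726919-127731558), was covered at 98.0% in LGE and 99.9% in CTX, so that only the MGE list lacked it. An intron of *Erbb4*, the neuregulin receptor, held a peak of 4806 bases (chr1:68890556-68895361) that was 210 kb from the nearest MGE peak and met 3.18% in LGE and 0% in CTX. The strongest CGE peak absent from MGE, in an intron of *Tmtc2* (chr10:105481881-105484859, −log10 q of 28.9), was covered at 89.2% in LGE and 97.2% in CTX.

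Wide domains were otherwise shared. Of 315 MGE peaks of 5 kb or more, 305 had 50% or more of their bases under CGE peaks, with a median of 98.9%, and of 399 such CGE peaks 356 had 50% or more under MGE peaks, with a median of 94.1%.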

How the data were processed

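H3K27me3 CUT&Tag peak lists of MGE (2 samples) and CGE (3 samples) were compared, with those of LGE and CTX as a further readout. Per the study's methods, the authors aligned reads to GRCm38 (mm10) with Bowtie2, removed duplicates with Picard, merged each region's samples with SAMtools and called broad peaks with MACS, whose version and control are not given in the sources used here. The deposited values used were the −log10 of the q-value and the fold enrichment (a ratio over local background), both as MACS wrote them for the merged samples, and they served only to rank or filter peaks within a list. Read counts were not used, so the depth behind a peak is unknown here.

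From the peak positions, coverage of the window 2 kb either side of each GENCODE M21 gene start was computed to the base with Python 3.11.15 and NumPy 2.4.6, checked on simulated peaks. Peaks on other sequences were left out (2 in MGE, 3 in CGE). Promoter sequence was read from GRCm38.p6 (RefSeq assembly). Its letters were equal to the RefSeq promoter table at all 5403 genes with the same start.

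Members and the 41 gene lists were chosen with earlier results of these data known. Named genes were, per direction, up to 15 calls kept at q under 0.001, with peaks under 3 kb apart joined and with equal covered bases; called members of the gene lists other than those set by a symbol prefix; members of the identity lists; genes at the 10 widest peaks of each list; and genes next to the threshold. *Vcan*, *Zic2*, *Hoxa9*, *Hoxb4*, *Vax1*, *Hand2*, *Uncx*, *C1ql1*, the uncalled hedgehog and pallial genes and the genes at the strongest peaks were added after their values were seen. Some results of the lists are not reported here. Each alternative changed 1 choice.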

Additional observations from a re-analysis of the deposited data

How the results depend on the processing

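With 1 list per region, no sample could be left out in turn. No paired analysis was possible because the lists hold merged samples and no test was made. Counts are given as genes higher in MGE and in CGE, from 26 and 210. Joining peaks gave 58 and 308, an equal number of strongest peaks 44 and 173, equal covered bases 100 and 95, and a q-value under 0.001 28 and 443. A threshold of 30 points gave 80 and 514, and of 50 points 9 and 82. The upstream 2 kb alone gave 91 and 364, 5 kb either side 1 and 2, and the gene body with 2 kb upstream 4 and 21. Autosomes alone (24 and 205) and the RefSeq 5′ end (19 and 146 of 16449 genes, added after seeing the data) stayed within 1.5 times. Peaks with no base in the other list, 3015 in MGE and 6939 in CGE, became 745 and 4611 at a q-value under 0.001, 3812 and 3938 with an equal number of peaks, and 5672 and 1283 with equal covered bases. *Gas1* and *Ntn4* changed direction with equal covered bases, to 26.45 and 33.625 points higher in MGE, because their CGE peaks were among those dropped. Dropping the weaker CGE peaks accounts by construction for the changes with equal bases, and for the other alternatives the cause was not tested. The calls rest on a 4 kb window and on 1 list each, and a peak missing from a list was not detected at its depth rather than shown to be absent.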

Other observations

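With equal covered bases 74 further genes stood 40 or more points higher in MGE, and some that belong to the gene lists are given here, chosen after their values were seen. *Scube3*, a secreted protein of the hedgehog pathway, was covered at 83.9% in MGE and 70.2% in CGE as deposited, and at 83.9% and 0% once the weaker CGE peaks were left out. *Id4*, an inhibitor of bHLH factors, was at 64.9% against 0% in that comparison, and *Fgf10*, a growth factor, at 68.2% against 27.025%. *Neurod2* was at 84.8% against 38.2%.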
